A study of Mus musculus with 10 samples.

Results

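Chromosome contacts of mouse embryonic stem cells lacking both the E1 and the E3 enhancer (E1&E3-dKO, 2 libraries) were compared with those of the undeleted cells (WT, 2 libraries), which are 4 of the 10 libraries of the series. The libraries were chosen by their genotype label. All cells were of the line ES-E14TG2a, grown without feeder cells on gelatin with LIF, the GSK3 inhibitor CHIR99021 and the MEK inhibitor PD0325901, in WT and E1&E3-dKO alike. The assay was exo-Hi-C, a Hi-C protocol in which an exonuclease removes linear DNA after proximity ligation. The labels name LRC and LIC as alternatives for this step without assigning them to libraries. They give neither the positions of E1 and E3 nor how many clones or cultures stand behind the replicates, so spreads and p-values describe these libraries and may be technical. The title of WT replicate 1 begins with w326 and those of the other 3 libraries do not.

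In Hi-C, pieces of DNA that lie close together in the nucleus are ligated and sequenced, so a read pair records a contact. Contacts become rarer as the distance along the chromosome grows. They are enriched within topologically associating domains (TADs), stretches of a chromosome that contact themselves more than their neighbours. Enhancers are regulatory elements that act on promoters, often over long distances and mostly within the same TAD. Loci many megabases apart lie far outside single TADs.

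For each library there was a list of interactions, which are pairs of 10 kb bins on one chromosome whose reads exceeded an expectation at an adjusted p of at most 0.01, and a list of TADs with a score. The lists held 1273 and 466 interactions in WT and 851 and 6014 in E1&E3-dKO, with replicate 1 named first here and throughout. The second WT list gave every pair in both orientations, and each pair was counted once. Both lines of each of its 466 pairs gave the same reads, and the reads were odd in 259 of them, so the listed reads were not 2 times a whole number of reads. Whether both orientations also entered the expectation behind its p-values is not known, and the expected contacts and p-values of WT replicate 2 carry that doubt. E1&E3-dKO replicate 2 therefore held several times more pairs than its own replicate, and every result is given for both libraries.

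The E1&E3-dKO replicates did not hold the same excess of long interactions, which are those spanning 20 Mb or more. WT replicate 1 listed 619 and WT replicate 2 listed 302, against 603 in E1&E3-dKO replicate 1 and 3713 in E1&E3-dKO replicate 2. The first E1&E3-dKO library thus lay between the WT libraries, and the second lay far above all others. On the log2 scale the E1&E3-dKO mean exceeded the WT mean by 1.79, less than the larger SD within a genotype (1.85, n = 2). The difference was 0.48 without E1&E3-dKO replicate 2 and 2.31 without WT replicate 1. With 2 libraries against 2, an exact permutation test cannot give a two-sided p below 0.33.

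As a share of each list, long interactions made up 48.6% (exact binomial 95% interval 45.8 to 51.4) and 64.8% (60.3 to 69.1) in WT. The shares in E1&E3-dKO were 70.9% (67.7 to 73.9) and 61.7% (60.5 to 63.0). These intervals cover counting error only. The second E1&E3-dKO share fell between the WT shares, so the genotypes overlapped, and the mean difference of 9.58 percentage points was smaller than the SD between the WT libraries, 11.4 (n = 2). Without WT replicate 1, the library titled w326, the difference was 1.49 points. Interactions under 2 Mb numbered 357 and 43 in WT and 108 and 342 in E1&E3-dKO, and those from 2 to 20 Mb numbered 297 and 121 in WT and 140 and 1959 in E1&E3-dKO. The second E1&E3-dKO library was thus the longest list above 2 Mb but not below it.

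Nearly all additional long pairs of E1&E3-dKO replicate 2 rested on 3 reads, the smallest number listed at this distance in any of the 4 libraries. Pairs with exactly 3 reads were 66.9% and 65.9% of long interactions in WT and 85.6% and 92.7% in E1&E3-dKO. With at least 4 reads, a limit chosen after the data were seen, 205 and 103 long pairs were left in WT and 87 and 272 in E1&E3-dKO. The genotypes then overlapped in both directions, and the log2 difference was 0.08. The lists also ended at different p-values, the largest being 8.11e-09 and 5.99e-09 in WT and 5.41e-09 and 3.87e-08 in E1&E3-dKO. Cut at 5.41e-09 everywhere, they kept 527 and 287 long pairs in WT and 603 and 2179 in E1&E3-dKO, and E1&E3-dKO replicate 2 was still the longest list. Among the 466 interactions of smallest p of each library, 156 and 302 were long in WT and 275 and 242 in E1&E3-dKO, so that both E1&E3-dKO libraries lay between the WT libraries.

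The expectation implied by the p-values of the listed pairs was lower in the E1&E3-dKO libraries. It was recovered as the Poisson mean under which the listed reads have the listed p, corrected for the bias factor of each bin. The Poisson form is an assumption, as the formula behind the p-values is not given. Only pairs that passed the limit of their list enter, so the values need not hold for all pairs. The median over listed pairs 0.5 to 2 Mb apart was 0.228 and 0.275 contacts in WT and 0.0945 and 0.0514 in E1&E3-dKO. At 20 to 40 Mb it was 0.00910 and 0.00939 in WT and 0.00547 and 0.00372 in E1&E3-dKO. At 80 Mb and beyond the libraries came closer, with 0.00163 and 0.00178 in WT and 0.00154 and 0.00133 in E1&E3-dKO. The E1&E3-dKO values were the lower ones in each of these bands, and replicate 2 had the lowest. Total reads per library were not used here, so depth is unknown, and the part of this expectation in the number of long pairs was not tested.

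**Figure D1:**
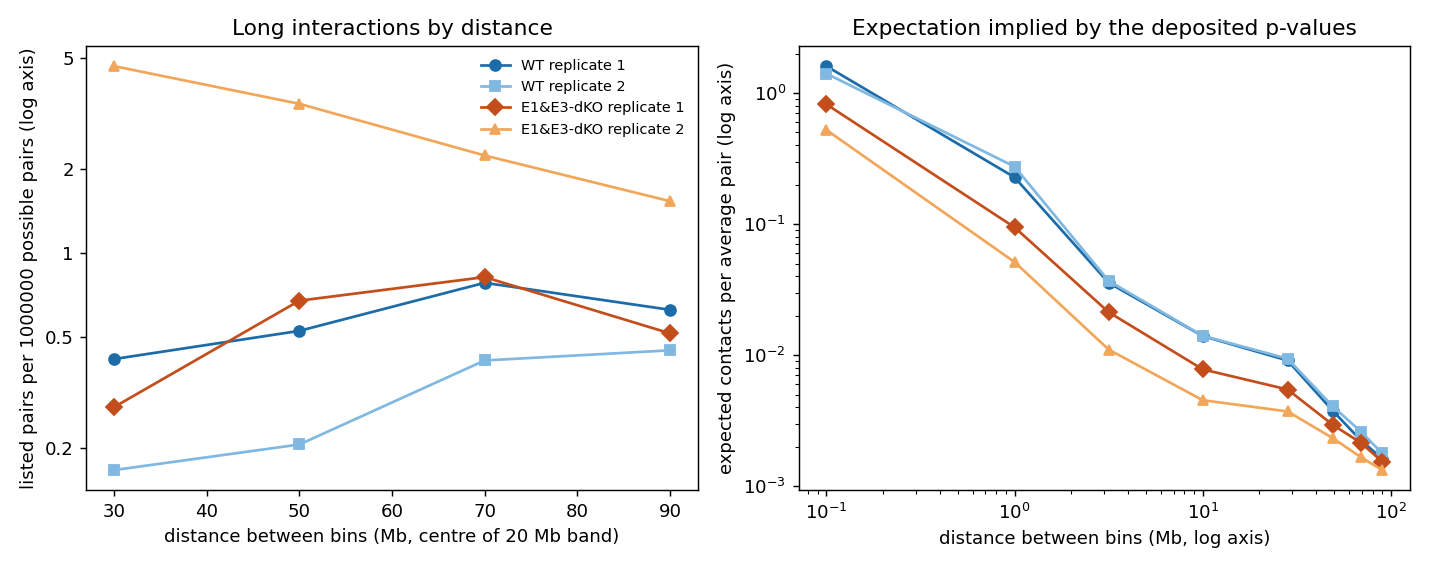
Left, long interactions per 1000000 possible bin pairs (log axis) in 20 Mb bands of distance, one line per library. Right, expected contacts implied by the p-values of listed pairs, as medians corrected for bias (log axis), against distance (Mb, log axis). E1&E3-dKO replicate 2 lies above the other libraries at every distance on the left, from 4.68 down to 1.54 per 1000000, and lowest on the right.

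The distance profile of the long interactions also separated E1&E3-dKO replicate 2 from the other 3 libraries. Their median distance was 57.9 and 64.1 Mb in WT and 58.4 and 40.1 Mb in E1&E3-dKO. Between 20 and 40 Mb there were 0.418 and 0.167 listed pairs per 1000000 possible pairs in WT and 0.281 and 4.68 in E1&E3-dKO. Between 60 and 80 Mb the numbers were 0.784 and 0.413 in WT and 0.821 and 2.24 in E1&E3-dKO. Per possible pair, the first 3 libraries were therefore denser at 60 to 80 Mb than at 20 to 40 Mb, and E1&E3-dKO replicate 2 ran the other way. No list held a pair farther apart than 100 Mb, so possible pairs were counted up to that distance.

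Across the chromosomes, long interactions followed the number of possible pairs in most cases. Both E1&E3-dKO shares lay above both WT shares on 3 of 20 chromosomes (15%; chromosomes 1, 9 and 18) and below them on 3 of 20 (15%; chromosomes 4, 15 and 16). Chromosome 1 held most long pairs in every library, with 59 and 30 in WT and 65 and 375 in E1&E3-dKO. Chromosomes 2 and 4 followed in WT replicate 1 with 53 and 51, chromosomes 4 and X in WT replicate 2 with 28 and 25. Chromosomes 2 and 3 followed in E1&E3-dKO replicate 1 with 61 and 45, and chromosomes 6 and 2 in E1&E3-dKO replicate 2 with 319 and 313. Chromosome 1 was the only chromosome among the leading 3 of all 4 libraries.

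Chromosome 4 showed the widest gap between the genotypes in these shares. It held 8.24% and 9.27% of long interactions in WT and 5.64% and 5.60% in E1&E3-dKO, where its share of possible pairs is 6.66%. The E1&E3-dKO libraries lay below that share and the WT libraries above it, a difference of -3.14 percentage points (WT 8.76% ± 0.73, E1&E3-dKO 5.62% ± 0.03, SD, n = 2 each). An exact permutation test over the 4 libraries gives its smallest possible p, 0.33.

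Most of this gap lay in 1 window, chosen after its values were seen. Between 40 and 60 Mb of chromosome 4 (mm9), 31 and 13 long pairs had an end in WT, which is 5.01% and 4.30% of those lists. In E1&E3-dKO 11 and 80 pairs had an end there, 1.82% and 2.15% of the lists. The other long pairs of chromosome 4 were 3.23% and 4.97% of the lists in WT and 3.81% and 3.45% in E1&E3-dKO, where the genotypes overlapped. In the 6 libraries of the single deletions the window held between 1.74% and 3.76% of long pairs, so that WT replicate 1 and 2 were the highest of all 10 libraries.

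The X chromosome divided the E1&E3-dKO replicates. It held 6.95% and 8.28% of long interactions in WT, 7.30% in E1&E3-dKO replicate 1 and 2.69% in E1&E3-dKO replicate 2, where 7.45% of possible pairs lie on X. Chromosome 6 showed the opposite order, with 7.11% and 5.96% in WT, 4.31% in E1&E3-dKO replicate 1 and 8.59% in replicate 2. Neither chromosome separated the genotypes.

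**Figure D2:**
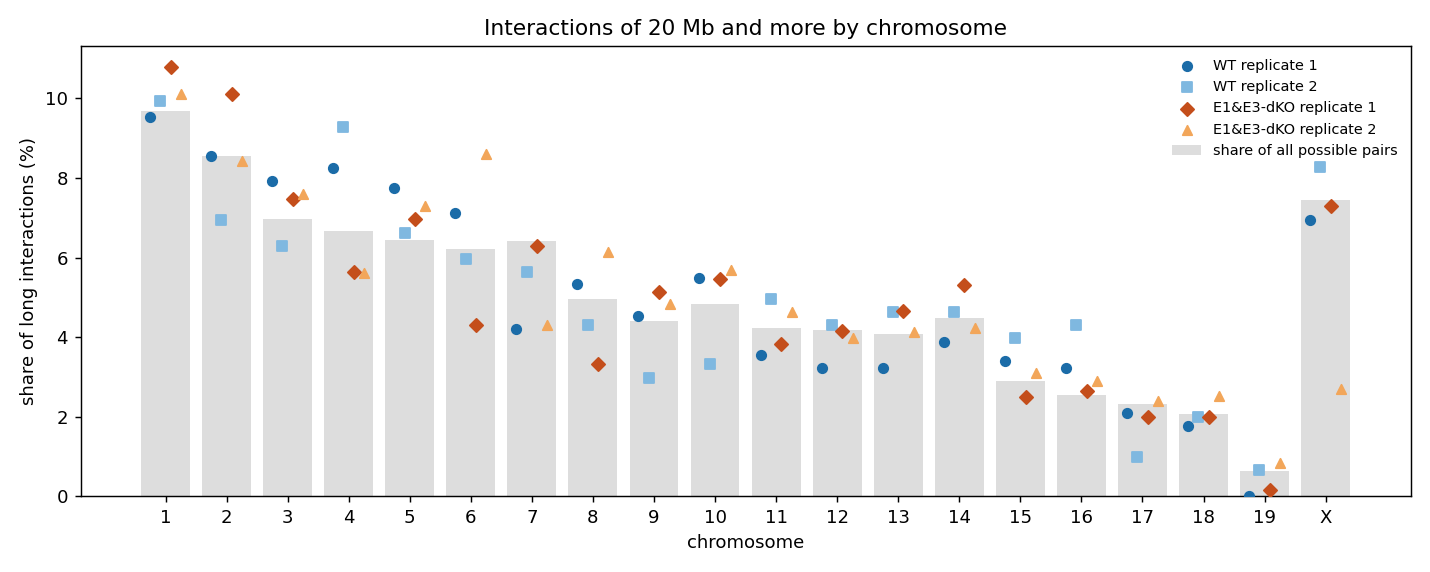
Share of long interactions (%) on each chromosome, one point per library, with grey bars for the share of possible bin pairs. On chromosome 4 both E1&E3-dKO points lie under the bar (5.64% and 5.60%) and both WT points above it (8.24% and 9.27%), while on X only E1&E3-dKO replicate 2 (2.69%) lies far below the bar.

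Mouse chromosomes carry the centromere at their beginning, so each chromosome was divided into 3 equal parts of the span covered by the files, called centromere-near, middle and telomere-near. The centromere-near part held 33.7% and 37.1% of the ends of long interactions in WT and 32.2% and 28.3% in E1&E3-dKO. Possible pairs place 31.6% of ends there, and both E1&E3-dKO libraries lay below both WT libraries. The difference of -5.14 percentage points exceeded the larger SD within a genotype, 2.72 (n = 2), and the exact permutation p was 0.33, the smallest this design allows. It was -3.21 points without E1&E3-dKO replicate 2 and -6.84 points without WT replicate 1. The middle part held 32.6% and 30.0% of ends in WT and 34.2% and 38.5% in E1&E3-dKO, against 36.8% of possible ends. The telomere-near part differed little, with 33.8% and 32.9% in WT and 33.6% and 33.2% in E1&E3-dKO.

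Contacts joining the centromere-near to the telomere-near part were 27.8% and 30.1% of long interactions in WT and 24.9% and 12.7% in E1&E3-dKO, against 20.5% of possible pairs. Only E1&E3-dKO replicate 2 fell below the possible share, and it is also the library whose long pairs were shortest. Pairs within the telomere-near part were 4.36% and 3.97% of long interactions in WT and 4.64% and 9.80% in E1&E3-dKO. Pairs within the middle part were 4.20% and 2.65% in WT and 3.15% and 7.49% in E1&E3-dKO. In these last 2 classes E1&E3-dKO replicate 1 stayed close to WT and replicate 2 was the highest library. Contacts from the middle to the telomere-near part were 31.0% and 27.8% in WT and 33.0% and 34.0% in E1&E3-dKO. Those from the centromere-near to the middle part were 25.7% and 26.8% against 29.2% and 28.0%. Neither class overlapped between the genotypes, nor did the class joining centromere-near and telomere-near parts or the class within the telomere-near part. Pairs within the middle part overlapped. So did those within the centromere-near part, with 6.95% and 8.61% in WT and 5.14% and 7.97% in E1&E3-dKO.

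**Figure D3:**
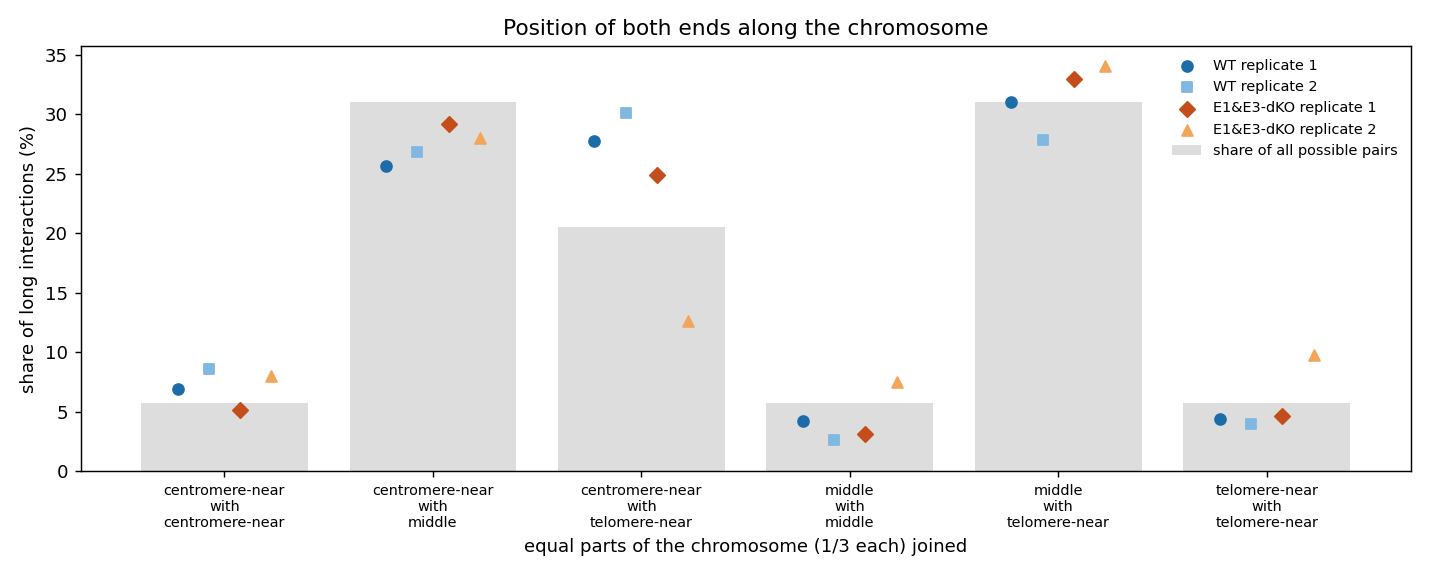
Share of long interactions (%) by the parts of the chromosome that they join, one point per library, with grey bars for the share of possible bin pairs. In the class joining the centromere-near and telomere-near parts the WT points lie at 27.8% and 30.1%, E1&E3-dKO replicate 1 at 24.9% and replicate 2 at 12.7%, under the bar of 20.5%.

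Single long interactions rarely recurred, in either genotype. With both ends matched to within 1 bin, 12 of the 619 long pairs of WT replicate 1 (1.94%) were listed in WT replicate 2, 13 (2.1%) in E1&E3-dKO replicate 1 and 11 (1.78%) in E1&E3-dKO replicate 2. Of the 603 long pairs of E1&E3-dKO replicate 1, 12 (1.99%) were in WT replicate 1, whereas E1&E3-dKO replicate 2 held 8 (1.33%). A long pair was thus found in the replicate of its own genotype about as rarely as in the other genotype. Long pairs also stood alone on the map, since only 2.58% and 2.98% of them in WT and 1.16% and 0.269% in E1&E3-dKO had another long pair with both ends within 5 bins.

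An interaction was called gained when both E1&E3-dKO libraries and neither WT library listed it, and lost in the reverse case. Among the 603 long pairs of E1&E3-dKO replicate 1, 2 were gained (0.332%), and among the 619 of WT replicate 1, 0 were lost (0%). One gained pair joined 9.325 and 65.675 Mb of chromosome 14 with 3 reads in each E1&E3-dKO library. The other joined 18.305 and 72.775 Mb of chromosome 7 with 3 and 6 reads. Each was also listed in 1 of the 6 single-deletion libraries. Neither remained at an adjusted p of at most 0.001.

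Beside these, 4 distinct long pairs were listed in all 4 libraries, 3 of them on chromosome 6. Bins at 23.115 and 50.565 Mb of chromosome 6 shared 13 and 6 reads in WT and 5 and 9 reads in E1&E3-dKO. The pair at 42.975 and 117.715 Mb of chromosome 6 had 5 and 7 reads in WT and 4 and 5 in E1&E3-dKO. These reads overlapped between the genotypes. The third, at 78.165 and 136.275 Mb of chromosome 6, had 5 and 3 reads in WT and 7 and 3 in E1&E3-dKO, and the pair at 19.855 and 72.065 Mb of chromosome 8 had 6 and 7 reads in WT and 4 and 6 in E1&E3-dKO. Each of the chromosome 6 pairs was listed in 5 of the 6 single-deletion libraries too.

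Few bins took part in more than 1 long pair, namely 1.15% and 0.838% of bins with a long pair in WT and 0.585% and 2.05% in E1&E3-dKO. The bin with most partners in both replicate 1 libraries, WT and E1&E3-dKO, lay at 32.095 Mb of X. Counting neighbours within 1 bin, it had 6 and 3 long partners in WT and 4 in E1&E3-dKO replicate 1, and none in E1&E3-dKO replicate 2. At 4.255 Mb of X there were 4 and 2 partners in WT and 3 and 1 in E1&E3-dKO. At 23.115 Mb of chromosome 6 there were 2 and 3 partners in WT and 2 and 1 in E1&E3-dKO. The bins that led E1&E3-dKO replicate 2, at 125.505 Mb of chromosome 1 and 50.345 Mb of chromosome 11 among others, had 3 partners there and none in the other libraries.

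Reads were compared over the 44 interactions of any distance listed in all 4 libraries, with edgeR's quasi-likelihood test. None passed an adjusted p of 0.05 (0%), the smallest being 0.634. At an unadjusted p under 0.05 there were 3, all with fewer reads in E1&E3-dKO, and DESeq2 gave 0 at either limit. The 3 were all shorter than 4 Mb. The first, joining 4.255 and 7.825 Mb of chromosome 14, had 18 and 6 reads in WT and 5 and 5 in E1&E3-dKO (DESeq2 log2 change -1.17, SE 0.78). The second, joining 93.635 and 94.035 Mb of chromosome 3, had 23 and 24 reads in WT and 12 and 16 in E1&E3-dKO. The third, joining 116.685 and 116.985 Mb of chromosome 12, had 24 and 25 reads in WT and 11 and 18 in E1&E3-dKO. In each of the 3 the highest E1&E3-dKO value lay under the lowest WT value, which picking them by p favours. Of the 44, 7 had shares of reads higher in both E1&E3-dKO libraries than in both WT libraries (15.9%) and 8 had lower ones (18.2%). Some of the 44 are neighbouring bin pairs, as at 130.665 and 130.675 Mb of chromosome 6, and are not independent. In simulated data for this comparison, with 10 of 44 pairs changed, the test recovered 15% of log2 changes of 1 and 78% of log2 changes of 2, so only large changes could have been called.

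TADs were shorter and more numerous in E1&E3-dKO replicate 2, and E1&E3-dKO replicate 1 lay within the WT range in both respects. The lists held 2878 and 3548 TADs in WT and 3346 and 4871 in E1&E3-dKO. Median lengths were 250 and 210 kb in WT and 210 and 120 kb in E1&E3-dKO. The first E1&E3-dKO median equalled the second WT median, and the mean difference of -65 kb was about as large as the SD of 63.6 kb within E1&E3-dKO (n = 2). It was -20 kb without E1&E3-dKO replicate 2. TADs of at most 90 kb were 11.6% and 17.6% of the list in WT and 20.8% and 37.8% in E1&E3-dKO, without overlap. TADs of 1 Mb or more numbered 173 and 179 in WT and 183 and 109 in E1&E3-dKO.

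By chromosome, E1&E3-dKO held more TADs than WT in both libraries on 2 of 20 chromosomes (10%), 12 and X, and fewer on 0 (0%). Chromosome 12 had 108 and 123 TADs in WT and 141 and 192 in E1&E3-dKO, with median lengths of 415 and 280 kb against 240 and 130 kb. X had 211 and 297 TADs in WT and 321 and 446 in E1&E3-dKO, with median lengths of 150 and 110 kb against 100 and 90 kb. Both E1&E3-dKO medians were shorter than both WT medians on 9 of 20 chromosomes (45%) and longer on 0 (0%).

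By the definitions that follow, no WT TAD was split in both E1&E3-dKO libraries, and none were merged. WT TADs that met a single smaller or larger TAD do not count here and are described further below. A TAD was kept when a TAD of the other library overlapped it reciprocally by at least 80%. It was split when 2 or more TADs that lay inside it covered at least 70% of it and no TAD matched it, and merged in the reverse case. Of the 1783 TADs found in both WT libraries, 851 (47.7%) were kept in both E1&E3-dKO libraries, 282 (15.8%) in neither, and 0 (0%) were split in both. Kept in E1&E3-dKO replicate 1 were 1312 (73.6%), and in replicate 2 1040 (58.3%). Of the 1304 TADs found in both E1&E3-dKO libraries, 852 (65.3%) were kept in both WT libraries, 197 (15.1%) in neither, and 0 (0%) consisted of smaller TADs in both.

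Splits and merges did occur in single libraries. E1&E3-dKO replicate 1 split 2 WT TADs and replicate 2 split 11, with none in common. The highest-scoring of the first was 16.06 to 17.84 Mb of chromosome 7, with inner TADs at 16.33 to 17.68 Mb (score 2.584) and 17.73 to 17.81 Mb (1.685), but replicate 2 kept it whole. The highest-scoring of the 11 was 146.92 to 147.39 Mb of X, with 3 inner TADs in replicate 2 and no TAD in replicate 1. Of the E1&E3-dKO TADs, 1 was made of smaller TADs in WT replicate 1 and 3 in WT replicate 2, again without a shared case. The 1 found in WT replicate 1 was 32.49 to 32.7 Mb of chromosome 16, which fell into 32.5 to 32.63 Mb and 32.64 to 32.7 Mb there.

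With inner TADs allowed to cover only 50%, 1 WT TAD was split in both E1&E3-dKO libraries. It spanned 173.45 to 174.31 Mb of chromosome 1 with a mean score of 1.90 in WT. In E1&E3-dKO replicate 1 it held TADs at 173.74 to 173.95 Mb (score 1.596) and 173.95 to 174.3 Mb (1.974), and in replicate 2 TADs at 173.75 to 173.94 Mb (1.994) and 173.95 to 174.3 Mb (2.128). The inner TADs thus lay at nearly the same place in both libraries and left the first part of the WT TAD without a call.

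A finer description, added after the data were seen, counted TADs that were not kept but held a TAD inside them and had none around them (narrower), or lay inside a TAD and held none (wider), with ends allowed 25 kb outside. Of the 1783 WT TADs, 64 (3.59%) were narrower in both E1&E3-dKO libraries and 34 (1.91%) wider. Of the 1304 E1&E3-dKO TADs, 23 (1.76%) were narrower in both WT libraries and 33 (2.53%) wider. Among the 64, the narrower TADs of both E1&E3-dKO libraries matched each other in 22. In single libraries, 123 WT TADs (6.90%) were narrower in E1&E3-dKO replicate 1 and 380 (21.3%) in replicate 2.

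The TADs named for these classes are among the highest-scoring ones and were picked after their values were seen. At 68.09 to 68.61 Mb of chromosome 13 WT had a TAD with scores of 2.864 and 3.016, where both E1&E3-dKO libraries had one at 68.43 to 68.54 Mb with scores of 3.718 and 5.101. At 13.37 to 13.64 Mb of chromosome 7 the WT scores were 1.993 and 2.112. Both E1&E3-dKO libraries had a TAD at 13.49 to 13.64 Mb with scores of 2.402 and 2.864. The WT TAD of chromosome 13 was held by 0 single-deletion libraries and the narrower TAD by 5. The narrower TAD of chromosome 13 was thus not limited to the double deletion. The WT TAD and the narrower TAD of chromosome 7 were each held by 3 single-deletion libraries. In both places the narrower E1&E3-dKO TADs scored above both WT TADs. In the other direction, WT TADs at 69.56 to 69.71 Mb of chromosome 3 lay in an E1&E3-dKO TAD of 68.93 to 69.74 Mb in replicate 1 and 68.94 to 69.73 Mb in replicate 2. On chromosome 8 WT TADs at 89.34 to 89.44 Mb in replicate 1 and 89.33 to 89.44 Mb in replicate 2 met wider E1&E3-dKO TADs. These spanned 89.12 to 89.44 Mb and 89.15 to 89.45 Mb. The chromosome 3 WT TAD was held by 5 single-deletion libraries and the E1&E3-dKO TAD by 0. On chromosome 8 each was held by 3.

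Some places held a TAD in one genotype and no overlapping TAD in either library of the other, 50 for WT TADs (2.80%) and 65 for E1&E3-dKO TADs (4.98%). The highest-scoring one of E1&E3-dKO spanned 32.98 to 34.81 Mb of X, with scores of 3.192 and 3.485, and 1 of the 6 single-deletion libraries held it too. Another spanned 52.47 to 52.98 Mb of chromosome 14 with scores of 2.567 and 2.955 and was present in 4 of those 6. The highest-scoring one of WT spanned 103.7 to 103.84 Mb of chromosome 2 with scores of 2.189 and 2.485 and was present in 5 of those 6. These TADs of chromosomes X, 14 and 2 therefore recurred beyond the 4 libraries compared, but not all of the 50 and 65 did. The E1&E3-dKO TAD at 77.07 to 77.17 Mb of X and the WT TAD at 44.64 to 44.87 Mb of chromosome 14 were held by 0 of the 6.

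The share of TADs kept varied with their score and length. Of the WT TADs with a mean score under 1.6, 30.5% were kept in neither E1&E3-dKO library, against 6.91% of those scoring 2 or more. Of those up to 100 kb long 30.1% were kept in neither, against 12.3% of those over 500 kb. TADs with weak scores and short TADs were thus the ones most often not kept. Not kept does not mean absent, since only 50 of the 282 kept in neither had no overlapping TAD in either library. The overlap limit is relative to length, so the same shift in bins weighs more on a short TAD. The part of this in the result for length was not tested.

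TADs of E1&E3-dKO replicate 1 were found in WT more often than in its own replicate. Of its 3346 TADs, 49.5% were kept in WT replicate 1, 49.9% in WT replicate 2, and E1&E3-dKO replicate 2 kept 39.0%. Of the 2878 TADs of WT replicate 1, 62.0% were kept in WT replicate 2, 57.5% in E1&E3-dKO replicate 1 and 47.4% in E1&E3-dKO replicate 2. For both libraries E1&E3-dKO replicate 2 gave the lowest share.

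On X fewer TADs were kept than on any autosome, between genotypes and within them. From WT replicate 1 to WT replicate 2, 31.3% of X TADs and 64.4% of autosomal TADs were kept. From E1&E3-dKO replicate 1 to replicate 2 the shares were 11.5% and 41.9%. From WT replicate 1 to E1&E3-dKO replicate 1 they were 26.1% and 60.03%. X ranked lowest of the 20 chromosomes in each of the 12 ordered comparisons among the 4 libraries, those within a genotype included. Of the 66 X TADs found in both WT libraries, 24 (36.4%) were kept in neither E1&E3-dKO library. TADs were also shorter on X, with medians of 150 and 110 kb in WT and 100 and 90 kb in E1&E3-dKO. Autosomal medians were 250 and 220 kb in WT and 220 and 130 kb in E1&E3-dKO. The part of length in the low share kept on X was not tested.

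**Figure D4:**
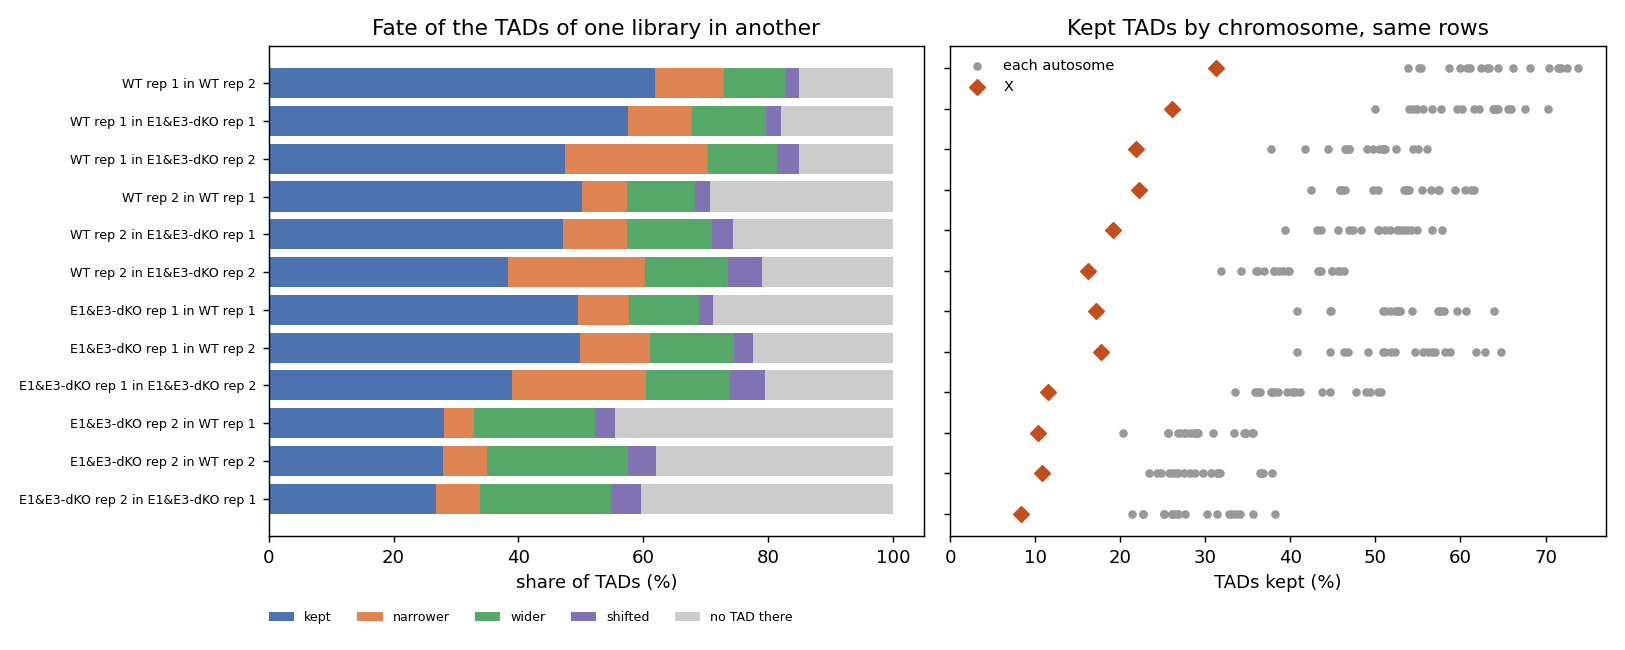
Left, share of the TADs of one library (%) that were kept, narrower, wider, shifted (overlapped in another way) or without any overlapping TAD in another library, for the 12 ordered pairs of libraries; right, TADs kept (%) on each autosome (grey) and on X (red) in the same rows. E1&E3-dKO replicate 1 keeps 49.5% and 49.9% of its TADs in the WT libraries and 39.0% in its replicate, and X is the lowest chromosome in each row.

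Scores were tested over the 812 TADs matched in all 4 libraries, with limma on the log2 scale, and no TAD passed an adjusted p of 0.05 (0%). The smallest adjusted p was 0.231. At an unadjusted p under 0.05 there were 82 TADs, 73 with a higher and 9 with a lower score in E1&E3-dKO. Median scores of these TADs were 1.81 and 1.86 in WT and 1.86 and 1.91 in E1&E3-dKO, and the median log2 change was 0.04. Both E1&E3-dKO scores exceeded both WT scores in 251 TADs (30.9%) and lay below both in 64 (7.88%). After each library was centred on its median the numbers were 179 (22%) and 159 (19.6%), a balance that centring itself favours. Centred scores also gave 0 calls with limma, with 77 TADs at an unadjusted p under 0.05, of which 54 were higher and 23 lower in E1&E3-dKO. In simulated data for this comparison, with 200 of 812 TADs changed, limma recovered 41.5% of log2 changes of 0.25 and 99.5% of log2 changes of 0.5. The simulation gave every TAD the same spread, unlike the data, so these shares do not carry over to the measured scores. A measured log2 change of 0.55 was not called.

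None of the TADs named from this test passed it. The smallest p for a higher score was found at 51.41 to 51.51 Mb of chromosome 11, with scores of 1.765 and 1.789 in WT and 2.329 and 2.9 in E1&E3-dKO. Its log2 change was 0.55 (SE 0.11, limma adjusted p 0.231). At 54.93 to 55.13 Mb of chromosome 15 the scores were 2.41 and 2.379 in WT and 2.992 and 3.013 in E1&E3-dKO, a log2 change of 0.33 (SE 0.08, limma adjusted p 0.294). The replicates of each genotype lay close together there and the genotypes far apart, a pattern that picking by the smallest p favours. The other 3 with the smallest p for a higher score lay at 12.68 to 12.84 Mb of chromosome 1, 128.88 to 128.96 Mb of chromosome 4 and 74.41 to 74.55 Mb of chromosome 15, with log2 changes of 0.45, 0.49 and 0.33.

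Among lower scores, the smallest p belonged to 130.32 to 130.52 Mb of chromosome 6, with scores of 2.591 and 2.49 in WT and 1.993 and 1.95 in E1&E3-dKO. Its log2 change was -0.37 (SE 0.08, limma adjusted p 0.231). At 67.07 to 67.43 Mb of chromosome 5 the scores were 2.133 and 2.135 in WT and 1.865 and 1.846 in E1&E3-dKO, and at 82.89 to 83.1 Mb of chromosome 12 they were 2.011 and 2.079 in WT and 1.793 and 1.81 in E1&E3-dKO. Neighbouring TADs of chromosome 17 made up the other 2 of these 5. The TAD at 14.19 to 15.13 Mb had scores of 2.745 and 3.161 in WT and 2.536 and 2.543 in E1&E3-dKO. The TAD at 15.18 to 15.62 Mb had scores of 3.313 and 3.637 in WT and 3.213 and 2.697 in E1&E3-dKO. In each of these 5 TADs both E1&E3-dKO scores lay below both WT scores, which picking them by the smallest p favours.

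**Figure D5:**
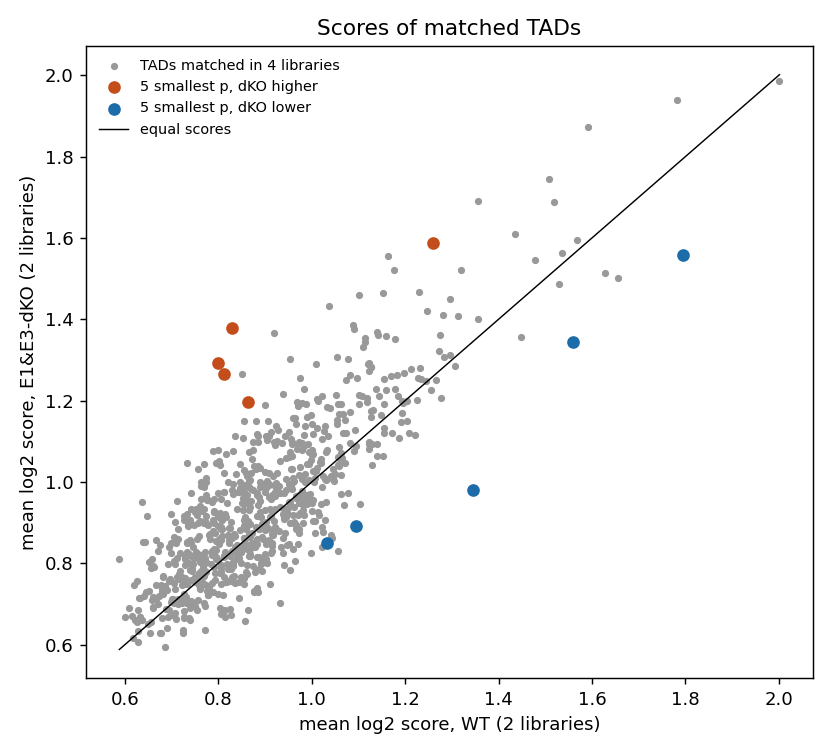
Mean log2 score of the 812 TADs matched in all 4 libraries in WT (horizontal axis, 2 libraries) and E1&E3-dKO (vertical axis, 2 libraries), with the line of equal scores. Coloured points are the 5 TADs with the smallest p for a higher score (red, log2 changes up to 0.55) and for a lower score (blue, down to -0.37), of which none passed the adjusted p.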

How the data were processed

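Exo-Hi-C libraries of 2 WT and 2 E1&E3-dKO samples were analysed. The submitters' processing notes name HiC-Pro 2.10.0, HOMER (without a version) and the build mm9. The deposited interaction lists give, per pair of 10 kb bins, a count of reads that is not normalized, a p-value and adjusted p-value, and for each bin a bias factor that is a ratio to an average bin. Bias factors lie between 0.5 and 2 in the files. The deposited TAD lists hold the ends and a score of each TAD, as computed by the authors, and no score is under 1.5. The tool and formula behind p-values and scores are not given in the sources used here. Replicates were not pooled.

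From these files, interactions were counted by distance, chromosome and position, matched within 1 bin, and TADs matched at a reciprocal overlap of 80%, with ends of inner TADs allowed 25 kb outside. Possible pairs were all bin pairs from 20 to 100 Mb apart within the span of each chromosome in the files. Matched TAD scores were tested with limma 3.58.1 and reads of shared interactions with edgeR 4.0.16 (R 4.3.3), both with Benjamini-Hochberg adjustment over all features tested. DESeq2 1.42.0 was an alternative. Matching functions and tests were checked on simulated data. The fits used these 4 libraries and no covariate.

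Named regions follow a rule: up to 5 gained, lost and shared long interactions with the smallest mean p, the 3 leading chromosomes and bins per library (ties were not all named), up to 5 split and merged TADs, and up to 5 features with the smallest p in each direction. In the test of reads only those with an unadjusted p under 0.05 are named. The comparison, its lists and its rules were chosen with earlier results of these data known. Alternatives were a stricter adjusted p, equal numbers of calls, other distance, overlap and cover limits, autosomes only, other normalizations, the replicate block and leaving out each library. The gene table at hand is for another build (GRCm38), so no gene or sequence is assigned to a region.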

Additional observations from a re-analysis of the deposited data

How the results depend on the processing

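Over the 10 comparisons and 52 alternatives other than leaving out a library, 45 kept the value within the spread or the count within 1.5 times. This limit is wide, so the tally does not measure how stable the results were. The log2 difference in long interactions was 1.79 with a spread of 1.85. It counted as kept at 0.25 with the same number of best interactions and at 0.08 with at least 4 reads. Long interactions gained in E1&E3-dKO fell from 2 to 0 at an adjusted p of at most 0.001, with the same number of best interactions and with at least 4 reads. The difference in the share of long interactions turned to -3.79 percentage points with at least 4 reads, a limit added after the data were seen. WT TADs split in E1&E3-dKO were 1 with inner TADs covering 50%. TADs with a changed score were 4 after quantile normalization.

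The replicate number as a block gave 17 TADs with a changed score (limma, 16 higher) and 0 interactions with changed reads. The labels do not say whether the replicate numbers pair the libraries. The correlation of the replicate differences of WT and E1&E3-dKO was 0.0229 for scores and -0.0877 for reads. These values cannot show whether libraries of the same number were made together.

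Leaving out 1 library at a time, gained long interactions ranged from 2 to 3700, lost ones from 1 to 601, split WT TADs from 0 to 11, merged ones from 1 to 3, and TADs with a changed score from 0 to 100. The highest gained and lost counts come from sets with 1 library in a genotype, where a long pair no longer has to recur. The 100 were found without E1&E3-dKO replicate 1, with the lone E1&E3-dKO library assumed to vary like WT, and 5 without E1&E3-dKO replicate 2. The log2 difference in long interactions ranged from 0.48 to 3.10, that in their share from 1.49 to 17.7 percentage points, that in centromere-near ends from -7.07 to -3.21 points, and that in median TAD length from -110 to -20 kb. Long pairs rest on few reads, 3 in most cases, and the depth of the libraries is unknown.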

Other observations

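Chromosomes 12 and X, on which both E1&E3-dKO libraries listed more TADs than both WT libraries, differed in opposite directions in their share of interactions from 2 to 20 Mb. Chromosome 12 held 9.76% and 13.2% in WT and 7.14% and 4.95% in E1&E3-dKO, from 29 and 16 interactions in WT and 10 and 97 in E1&E3-dKO. Both E1&E3-dKO shares were below both WT shares at this distance on 2 of 20 chromosomes (10%), 1 and 12, and above them on 3 of 20 (15%), 2, 6 and X. X held 2.02% and 1.65% of these interactions in WT and 9.29% and 3.57% in E1&E3-dKO, which rests on 6 and 2 interactions in WT and 13 and 70 in E1&E3-dKO.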
